A study of Mus musculus with 6 samples.

Results

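Autophagy is the pathway by which cells wrap worn proteins and organelles in a double membrane, the autophagosome, and hand them to lysosomes, whose acid hydrolases break the cargo down. Genes of this pathway were followed in RNA sequencing of isolated glomeruli, the filtering units of the kidney, whose mice the labels describe as having DKD, diabetic kidney disease. The set held 38 genes, chosen by name for their roles, out of 57132 gene rows in the count table. All 38 were among the 19927 genes that passed the filter on low counts. Both groups carried floxed Setdb2 alleles: 3 libraries were Cre-/Setdb2fl/fl (called Cre-negative here) and 3 were Cre+/Setdb2fl/fl (Cre-positive). Setdb2 encodes a putative histone methyltransferase, and the design text of the series places the question in podocytes, epithelial cells wrapped around the capillaries of the glomerulus. The Cre driver, the diabetes model, age and sex are not stated in these sources, and the labels name no group without diabetes and no Cre-positive group without floxed alleles.

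Podocytes divide rarely, and autophagy is known as a main route by which they renew their contents. Proximal tubule cells and macrophages are also rich in lysosomes, because the first reabsorb filtered protein and the second digest what they engulf. The pathway runs from the ULK kinases and the class III lipid kinase complex, which start the membrane, through a conjugation system that attaches ATG8 proteins to it, to cargo receptors and finally the lysosome. The kinase complex mTORC1 restrains both the ULK kinases and TFEB, the transcription factor that drives lysosomal genes.

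Libraries held between 53571438 and 58807042 counts. Setdb2 itself did not differ measurably at the gene level. It had 9.73, 8.804 and 6.58 CPM (counts relative to library size, scaled by TMM factors) in the Cre-negative libraries and 8.01, 7.79 and 7.29 CPM in the Cre-positive ones. The log2 fold change was -0.12 (95% confidence interval -0.52 to 0.28, adjusted p = 0.738), so these counts do not check the genotype labels. Its sign turned without Cre-negative replicate 1, where it was 0.0024. Cre-positive replicate 2 stood apart in Xist, a long RNA of X inactivation, with 24 counts against 36474 to 47632 in the other 5 libraries, and Ddx3y, Uty, Kdm5d and Eif2s3y of the Y chromosome had 0 counts in all 6. The labelled tissue was present, since the 12 podocyte markers summed to between 652 and 972 CPM per library, but the 14 proximal tubule markers summed to between 11618 and 18506 CPM. In such bulk samples fewer cells of a type and less RNA per cell cannot be told apart. The design text gives 3 per group without tying each library to its own mouse. The p-values therefore rest on library-to-library spread, part of which may be technical.

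Among the 38 autophagy and lysosome genes, the lysosomal protease gene Ctsd (cathepsin D) fell to about 0.514 of its Cre-negative level, and it alone passed the threshold. No member rose past the threshold, and 37 did not pass. The call is 2.63% of the members, against 7.55% of all genes tested (3.73% higher and 3.82% lower) in edgeR's quasi-likelihood test at an adjusted p of 0.05. At an unadjusted p under 0.05 stood 11 members (28.9%) and 4683 of all genes (23.5%). With DESeq2 7 of the 38 members passed, and 2697 of all 19927 genes did, so calls rose across all genes.

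The members were measured closely. Their standard errors of the log2 fold change had a median of 0.083, against 0.169 over all genes. For 34 of 38 members (89.5%) the 95% confidence interval lay within a 1.5-fold change in either direction, and for 18 (47.4%) within 1.25-fold, against 44.4% and 19.5% of all genes. The median log2 fold change was -0.040 over the members and -0.00089 over all genes, and the median absolute value was 0.14 against 0.22. The libraries of the genotypes did not overlap for 17 members (44.7%), 5 of them higher and 12 lower in Cre-positive, where 29.7% of all genes did not overlap (15.2% higher and 14.5% lower). In the range of average expression that the members span, 34.9% of genes did not overlap and 10.4% passed the threshold.

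**Figure D1:**
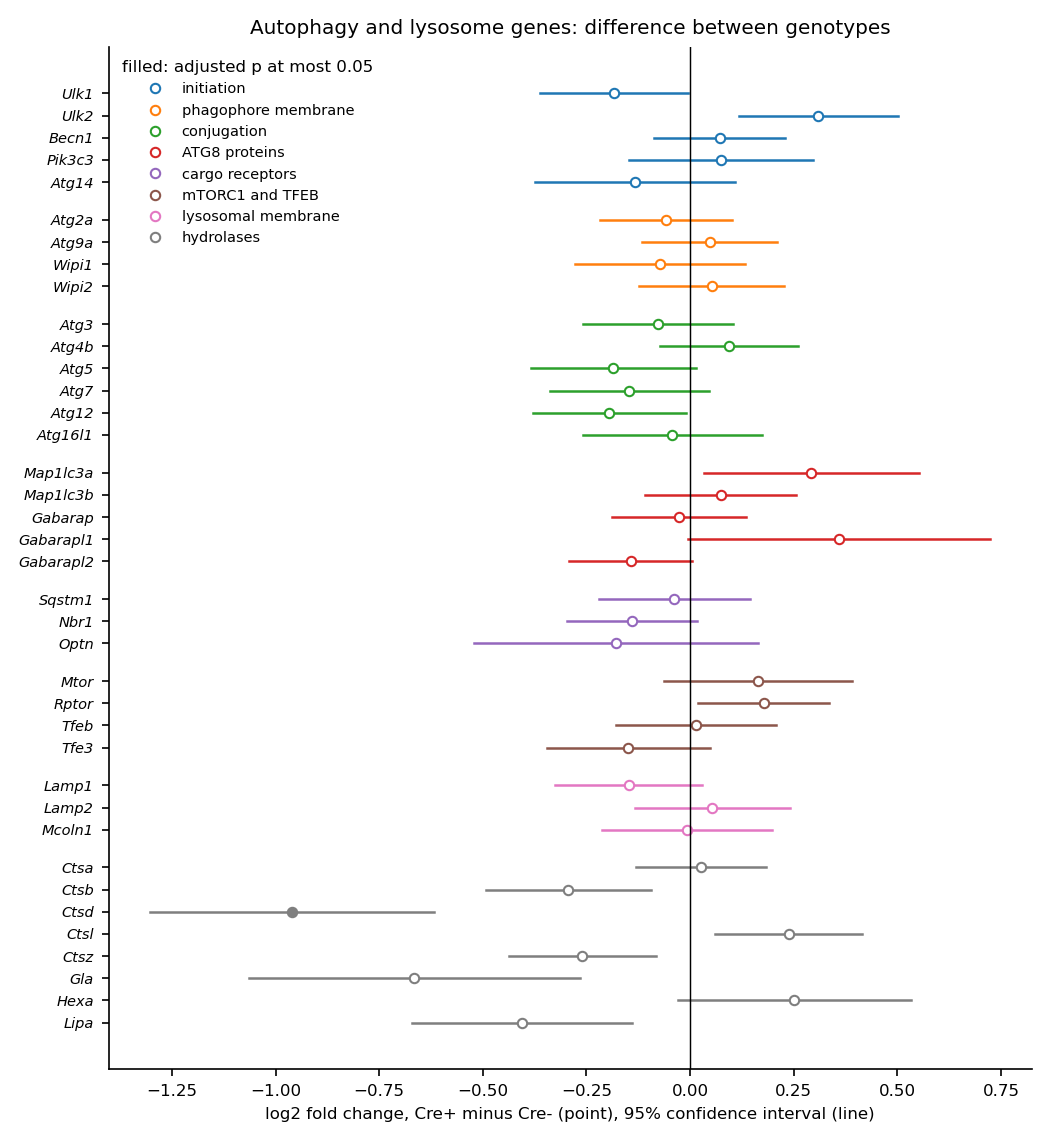
Log2 fold change of each of the 38 members (x axis, Cre-positive minus Cre-negative, points) with its 95% confidence interval (lines), grouped and coloured by role on the y axis. Filled points passed an adjusted p of 0.05: Ctsd alone did, at -0.96.

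The hydrolases spanned the widest range of the role groups, from -0.96 to 0.25, and their libraries separated by genotype in 7 of 8, with 5 lower and 2 higher in Cre-positive. Of the 8, 1 fell, none rose and 7 did not pass, and the median log2 fold change was -0.28. Cathepsin D is the main aspartic protease of lysosomes. Ctsd (ENSMUSG00000007891, chromosome 7) had 1585, 1139.6 and 1037 CPM in Cre-negative replicates 1, 2 and 3 and 652, 659.9 and 622 CPM in the Cre-positive replicates. Every Cre-positive library thus lay below every Cre-negative one, and the Cre-negative libraries were the more spread. The means were 1254 ± 291 and 645 ± 19.8 CPM (SD, n = 3), or -0.96 on the log2 scale (SE 0.15, 95% confidence interval -1.30 to -0.62, adjusted p = 0.00849).

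The call of Ctsd ended without Cre-positive replicate 3, at -0.93 with an adjusted p of 0.0540 in a fit where 462 genes passed in all. Without Cre-positive replicate 2, the library that stood apart in Xist, it was -0.98 with an adjusted p of 0.0421. Over single libraries left out, the log2 fold change of Ctsd ranged from -1.08 to -0.75. It was weakest without Cre-negative replicate 1, the library with the most Ctsd, where the call held. With the mean of the macrophage markers as a covariate it was -0.64 (adjusted p = 0.138), and with that of the proximal tubule markers -0.34 (adjusted p = 0.854), where 320 and 22 of all genes passed.

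The promoter of Ctsd is shown because Ctsd was the member past the threshold and because TFEB is known to bind an E-box motif, called CLEAR, at lysosomal genes. The stretch below holds the 250 bases before the start site on the minus strand, chr7:142387828-142388077 in GRCm38.p6, from RefSeq. Capitals mark the 8-base motif TCACGTGA, the inner part of CLEAR, at 99 to 92 bases before the start site.
Ctsd: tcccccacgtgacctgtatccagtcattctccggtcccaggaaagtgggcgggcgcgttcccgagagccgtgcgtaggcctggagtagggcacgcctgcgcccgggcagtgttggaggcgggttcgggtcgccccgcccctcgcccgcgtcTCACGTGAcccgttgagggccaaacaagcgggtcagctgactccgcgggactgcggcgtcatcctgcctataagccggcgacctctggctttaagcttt

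RefSeq windows of 300 bases, from 250 before to 50 after the start site, were found for 32 of the 38 members. Among these 32, the motif TCACGTGA occurred in 5 (15.6%), against 1.12% of the 27025 genes with a window and 1.89% of the genes with a window that were tested here. The longer form of 10 bases, with G before and C after these letters, occurred in none of the 32, against 0.370% of genes. The plain E-box CACGTG, which lies within both longer motifs, occurred in 10 of the 32 (31.2%) against 8.09% of genes. All 3 motifs read the same on both strands. The motif is known from lysosomal genes and the members were chosen for such roles. A higher share among them was thus foreseeable and is no result of these counts. A match describes letters in the window and is no proof of binding.

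The other members with TCACGTGA were Atg3, Ctsa, Gla and Mcoln1, and the stretches around it that lie before the start site are given for comparison with Ctsd. Each is 30 bases long with the motif in capitals, and Gla held it in 2 places. Ctsa also held it in 2 places, at 13 to 6 bases before and 4 to 11 bases after the start site. Neither leaves room for a 30-base stretch that ends before the start site, so Ctsa is not shown.
Atg3 (chr16:45158746-45158775, plus strand): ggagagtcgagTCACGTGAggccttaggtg
Gla (chrX:134601215-134601244, minus strand): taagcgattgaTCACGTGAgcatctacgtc
Gla (chrX:134601182-134601211, minus strand): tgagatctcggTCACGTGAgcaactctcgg
Mcoln1 (chr8:3500462-3500491, plus strand): aggcgccccgcTCACGTGAccgcggcgcat
The 5 genes that share these letters did not share a direction past the threshold. Ctsd fell, while the log2 fold change was -0.67 for Gla, -0.077 for Atg3, 0.026 for Ctsa and -0.0081 for Mcoln1, none of which passed. The sign of Mcoln1 turned in 5 of 18 other settings.

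Gla encodes alpha-galactosidase A, the lysosomal enzyme whose loss in Fabry disease loads podocytes with glycolipid. It was the member with the lowest expression, at 10.7, 7.93 and 7.84 CPM in Cre-negative and 5.23, 5.600 and 5.83 CPM in Cre-positive libraries. All Cre-positive libraries were lower, but at -0.67 on the log2 scale (SE 0.18, interval -1.06 to -0.27) the adjusted p was 0.0553, which does not pass. It passed with DESeq2 (adjusted p = 0.00603), under a stricter filter of 1 CPM in 3 libraries (0.0476) and without Cre-negative replicate 3 (0.0481).

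Lipa encodes the acid lipase that frees cholesterol from lipoproteins in lysosomes. Its levels were 258, 187 and 213 CPM in Cre-negative and 166, 155 and 176 CPM in Cre-positive libraries, without overlap. The log2 fold change was -0.41 (SE 0.12, adjusted p = 0.0724) and stayed short of the threshold, which it passed with DESeq2 (adjusted p = 0.0127) and without Cre-negative replicate 2 (0.0320).

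Ctsb and Ctsz are cysteine proteases of the lysosome, cathepsins B and Z. Ctsb had 986, 897 and 842 CPM in Cre-negative and 751, 716 and 756 CPM in Cre-positive libraries, or -0.29 on the log2 scale (SE 0.087, adjusted p = 0.0795). Ctsz had 145, 155 and 132 CPM and 117, 126 and 118 CPM, or -0.26 on the log2 scale (SE 0.078, adjusted p = 0.0815). In both genes the Cre-positive libraries were all lower and neither gene passed. Both did with DESeq2 (adjusted p = 0.00719 and 0.0330) and without Cre-negative replicate 3 (0.0358 and 0.0328). Exons of Ctsb overlap those of Fdft1 on the opposite strand, a gene that was itself lower, and the strand setting of the counting is not given. Fdft1 had 16089 counts over the 6 libraries against 278771 of Ctsb. Ctsz overlaps Nelfcd in the same way, with 13776 counts of Nelfcd, which did not pass, against 44668 of Ctsz.

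Ctsl and Hexa pointed the other way. Ctsl encodes cathepsin L, a cysteine protease that has also been studied in podocyte foot process remodelling, and Hexa the alpha subunit of the ganglioside-cleaving hexosaminidase. Ctsl had 506, 453 and 466 CPM in Cre-negative and 572, 544 and 565 CPM in Cre-positive libraries, or 0.24 on the log2 scale (SE 0.078, adjusted p = 0.106). Hexa had 63.5, 45.7 and 63.2 CPM and 69.1, 65.4 and 70.7 CPM, or 0.25 on the log2 scale (SE 0.12, adjusted p = 0.263). All Cre-positive libraries of both genes were higher, Cre-negative replicate 2 was the lowest for Hexa, and neither gene passed, although Ctsl did with DESeq2 (adjusted p = 0.0251). Ctsa, the protective protein of the sialidase complex, had 309 ± 5.28 against 314 ± 9.92 CPM (SD, n = 3) and a log2 fold change of 0.026 (95% confidence interval -0.13 to 0.18), the smallest difference among the 8 hydrolases.

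**Figure D2:**
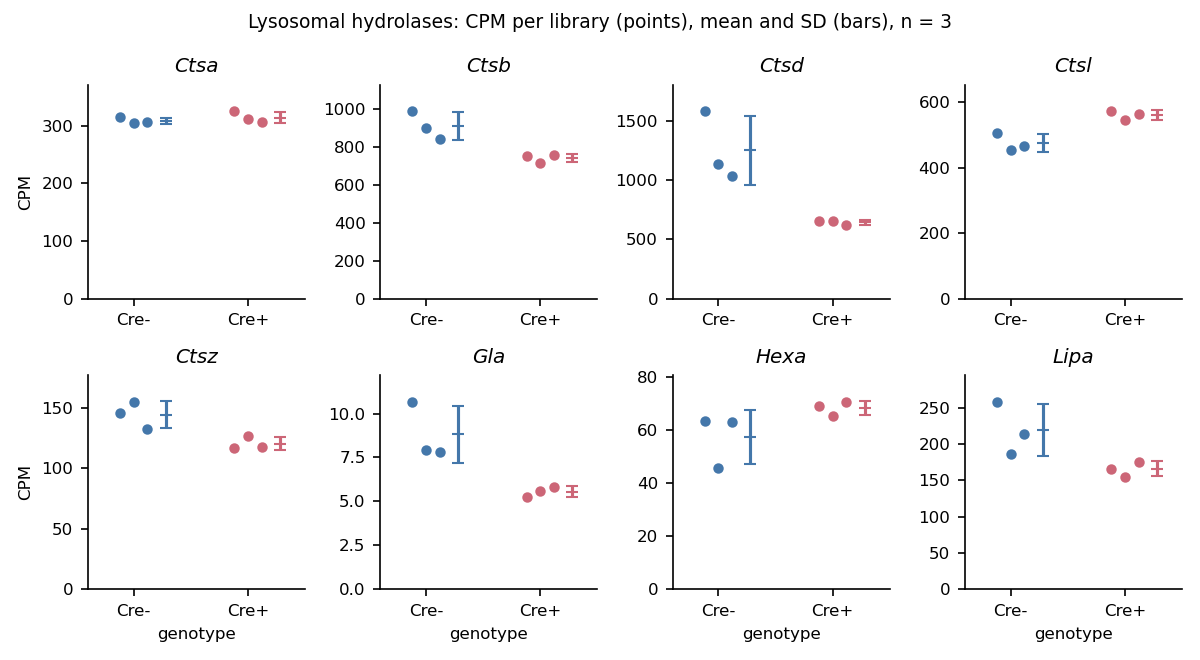
CPM of the 8 hydrolase members (y axis, from 0) in each library (points) by genotype (x axis), with the mean and SD of 3 libraries. The Cre-positive points of Ctsd, Gla, Lipa, Ctsb and Ctsz lie below all Cre-negative points, those of Ctsl and Hexa lie above them, and Ctsa overlaps.

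In CPM per kilobase of merged exon, a level, Ctsd had 533 in Cre-negative and 274 in Cre-positive libraries. Ctsb followed at 150.1 and 122, and Ctsl stood at 73.2 and 86.3. On this scale Ctsd was the highest of the 8 in both genotypes, and Gla the lowest at 2.699 and 1.701. The ranks depend on the annotated exon lengths. By CPM alone, Ctsb (741) stood above Ctsd (645) in the Cre-positive libraries.

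Markers of other cell types moved with genotype beside Ctsd. Of 16 macrophage markers 2 were lower past the threshold, none was higher and none was at 0 in all libraries. The log2 fold change was negative for 15 of them and 0.18 for Csf1r, and 9 of the 16 overlapped between genotypes. The summed level of the 16 was 411, 212 and 331 CPM in the Cre-negative libraries and 211, 209.5 and 199 CPM in the Cre-positive ones. Of 10 markers of injured epithelium 5 were lower and none higher. They summed to 12516, 5997 and 4248 CPM in Cre-negative replicates 1, 2 and 3, the same order as Ctsd. In the Cre-positive libraries they summed to between 2137 and 2414 CPM. Most of the sum was Spp1, at 10031, 4955 and 3314 CPM in the Cre-negative replicates, which did not pass (adjusted p = 0.0572). Among the Cre-negative libraries Cd44, Vcam1 and Sox9 were lowest in replicate 2, and the other markers of the list kept the order of Ctsd. The part of macrophages and of injured epithelium in the level of Ctsd was not tested. The 14 proximal tubule markers went the opposite way in their sum. It was 11618 to 13780.1 CPM in Cre-negative and 16485 to 18506 CPM in Cre-positive libraries. Past the threshold 5 were higher and none lower. Of the 14, 3 had a negative log2 fold change, and Slc22a6 (-0.71, adjusted p = 0.0553) was lower in every Cre-positive library. The sums of markers of 4 further cell types were also higher, with no marker lower past the threshold. The log2 fold change was negative for 1 marker each of the distal nephron (Aqp2, -0.66), mesangial and podocyte lists. Of 10 endothelial markers 8 were higher, and they summed to 765 to 921 CPM in Cre-negative and 1139 to 1277 CPM in Cre-positive libraries. Of 10 distal nephron markers 6 were higher (6044 to 7416 against 9682 to 10255 CPM), of 6 mesangial markers 3 (203 to 225 against 288 to 304 CPM) and of 12 podocyte markers 3 (652 to 731 against 874 to 972 CPM). The 5 red cell markers also summed higher, though none passed. Their sums were 104, 71.5 and 215.9 CPM in Cre-negative and 216.3, 291 and 584 CPM in Cre-positive libraries. Lymphocyte and neutrophil markers summed to at most 7.15 CPM in a library, overlapped between genotypes in their sum, and none passed.

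**Figure D3:**
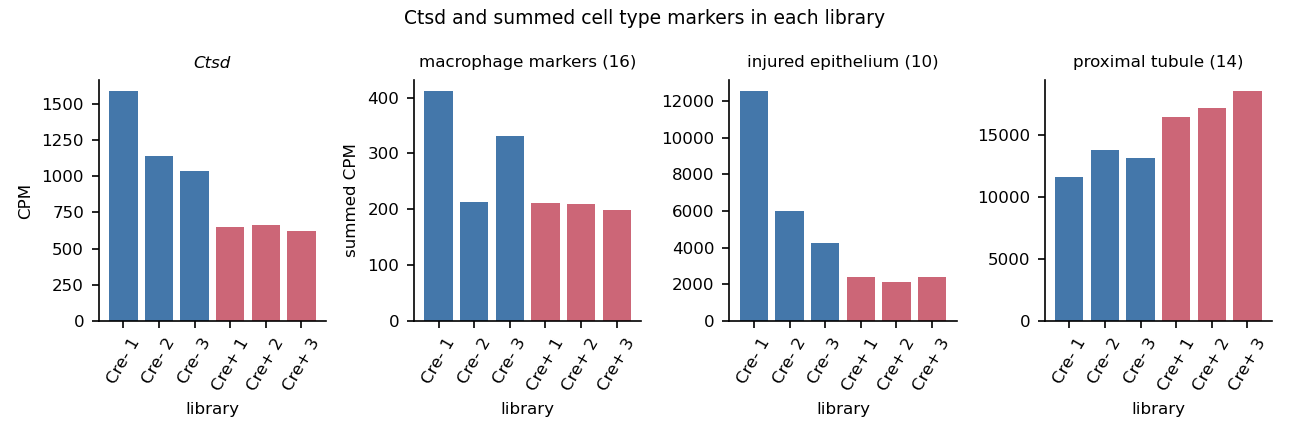
CPM of Ctsd and summed CPM of 3 lists of cell type markers (y axes, from 0) in each of the 6 libraries (x axis, blue Cre-negative, red Cre-positive). Ctsd and the summed injured epithelium markers are highest in Cre-negative replicate 1, at 1585 and 12516 CPM. Of the latter, 10031 CPM came from Spp1. The summed proximal tubule markers are higher in every Cre-positive library.

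The lysosomal membrane members did not pass the threshold. Lamp1 and Lamp2 encode the most abundant glycoproteins of that membrane, and Mcoln1 the calcium channel mucolipin-1 through which lysosomes signal to TFEB. Lamp1 had 1338, 1254 and 1271 CPM in Cre-negative and 1171, 1160.0 and 1154 CPM in Cre-positive libraries. The genotypes did not overlap, yet the log2 fold change was small at -0.15 (SE 0.078, adjusted p = 0.298). Lamp2, on the X chromosome, had 718, 683 and 633 CPM and 718, 674 and 718 CPM, which overlapped, and the log2 difference was 0.054 (SE 0.083, adjusted p = 0.752). Cre-positive replicate 2, with almost no Xist, had a Lamp2 level within the range of the Cre-negative libraries. Mcoln1 had 73.3 ± 8.46 against 72.9 ± 2.88 CPM (SD, n = 3) and a 95% confidence interval of -0.21 to 0.20 on the log2 scale.

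The kinase complex and the transcription factors that govern lysosomal genes did not pass either. Mtor encodes the kinase of mTORC1 and Rptor its scaffold raptor. Rptor had 46.2, 43.03 and 43.1 CPM in Cre-negative and 49.1, 50.7 and 49.8 CPM in Cre-positive libraries, all of the latter higher, and the log2 difference was 0.18 (SE 0.070, adjusted p = 0.166). Mtor had 156, 161 and 125 CPM and 159, 165 and 171 CPM and overlapped because of Cre-negative replicate 2, while Cre-negative replicate 3 was the lowest library (log2 fold change 0.16, adjusted p = 0.369). Tfeb was nearly level at 32.7 ± 0.560 against 33.02 ± 2.67 CPM (SD, n = 3), and its 95% confidence interval of -0.18 to 0.21 allows 0.884 to 1.15 times the Cre-negative level. Tfe3, its X-linked relative, had 40.8, 35.9 and 39.8 CPM and 37.7, 33.6 and 33.7 CPM, which overlapped, and the log2 difference was -0.15 (adjusted p = 0.347). Activity of mTORC1 and TFEB is set largely by phosphorylation and location in the cell, which these counts do not measure.

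At the start of the pathway the 2 ULK kinase genes, Ulk1 and Ulk2, pointed in opposite directions. Ulk2 had 41.97, 38.95 and 44.9 CPM in Cre-negative and 52.6, 48.4 and 54.9 CPM in Cre-positive libraries. Ulk1 had 114, 94.8 and 103 CPM and 89.99, 91.9 and 92.2 CPM. For Ulk2 all Cre-positive libraries were higher and for Ulk1 all were lower. The log2 fold change was 0.31 (SE 0.084, adjusted p = 0.0611) for Ulk2 and -0.18 (SE 0.078, adjusted p = 0.201) for Ulk1, and neither passed. Ulk2 did pass with DESeq2 (adjusted p = 0.0270) and without Cre-negative replicate 3 (0.0422). Per length, Ulk1 was the more abundant in both genotypes, at 15.99 and 14.1 CPM per kilobase against 7.02 and 8.696 for Ulk2.

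The class III phosphatidylinositol kinase complex had no gene past the threshold. Its members Becn1 (beclin 1), Pik3c3 (the lipid kinase VPS34) and Atg14 (the subunit that directs it to autophagosomes) had log2 fold changes of 0.072, 0.076 and -0.13, with adjusted p-values of 0.596, 0.701 and 0.509, and all 3 overlapped between genotypes. The genes that extend the young membrane also overlapped in all 4 cases. Atg2a, a lipid transfer protein, had 65.9, 63.2 and 58.6 CPM in Cre-negative and 60.6, 60.1 and 59.7 CPM in Cre-positive libraries (log2 fold change -0.058, adjusted p = 0.680). Wipi1, which binds the phosphoinositide that the kinase complex makes, had 41.7, 33.96 and 37.2 CPM and 35.2, 35.8 and 36.4 CPM (log2 fold change -0.073, adjusted p = 0.687), and its sign turned without Cre-negative replicate 1. Atg9a, the scramblase on the vesicles that seed the membrane, and Wipi2 stood at 0.047 and 0.052. The 95% intervals of these 4 genes all lay within a 1.25-fold change in either direction, the widest being -0.28 to 0.13 for Wipi1.

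In the conjugation system, 5 of 6 log2 fold changes were negative and none passed. Atg12 and Atg5 encode the partners that are joined into the conjugate which, with Atg16l1, places ATG8 proteins on the membrane. Atg12 had 62.6, 73.02 and 71.4 CPM in Cre-negative and 57.00, 62.4 and 61.4 CPM in Cre-positive libraries, all of the latter lower. Atg5 had 34.9, 34.9 and 36.2 CPM and 34.1, 30.4 and 28.7 CPM, also without overlap. The log2 fold changes were -0.20 (SE 0.081, adjusted p = 0.190) and -0.19 (SE 0.088, adjusted p = 0.245). Atg7, the activating enzyme, also lay lower in every Cre-positive library, at 30.4, 29.8 and 29.9 against 26.4, 29.3 and 25.6 CPM, and the log2 difference was -0.15 (SE 0.084, adjusted p = 0.342). The protease gene Atg4b, which trims ATG8 proteins, was the exception at 0.094 (adjusted p = 0.494), with every Cre-positive library above the Cre-negative ones, the nearest pair at 49.3 and 49.2 CPM. Atg3, the conjugating enzyme, and Atg16l1 overlapped at -0.077 and -0.043.

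The ATG8 genes encode the small ubiquitin-like proteins that coat autophagosomes, in an LC3 branch (Map1lc3a, Map1lc3b) and a GABARAP branch. None of the 5 passed. Gabarapl1 was by far the most abundant per length, with 314 CPM per kilobase in Cre-negative libraries. Gabarap followed at 139, Gabarapl2 at 37.2, Map1lc3a at 33.3 and Map1lc3b at 23.2. Length here is all merged exons of a gene, 7517 bases for Map1lc3b, so these ranks depend on the annotation. By CPM alone, Map1lc3b (174) stood above Gabarapl2 (86.5) and Map1lc3a (39.3) in the same libraries. Gabarapl1 also spread most, with 499, 594 and 804 CPM in Cre-negative replicates 1, 2 and 3 and 799.6, 856 and 777 CPM in the Cre-positive libraries. Cre-negative replicate 3 reached the Cre-positive level and the other 2 did not. The log2 fold change was 0.36 (SE 0.16, adjusted p = 0.219). Without Cre-negative replicate 3 it was 0.57 with an adjusted p of 0.0135, which passes and is over 1.5 times as large.

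Map1lc3a had 34.7, 41.7 and 41.6 CPM in Cre-negative and 41.3, 52.4 and 50.9 CPM in Cre-positive libraries, where Cre-positive replicate 1 lay among the Cre-negative values. Its log2 fold change was 0.29 (SE 0.11, adjusted p = 0.163). Gabarapl2 differed little but without overlap, at 86.4, 85.7 and 87.3 CPM and 74.7, 81.9 and 78.2 CPM (log2 fold change -0.14, SE 0.065, adjusted p = 0.226). The common autophagy readout gene Map1lc3b stood at 174 ± 14.5 against 183 ± 7.79 CPM (SD, n = 3) and Gabarap at 256 ± 10.96 against 251 ± 9.45 CPM, with log2 fold changes of 0.074 and -0.027. The sign of Gabarap turned without Cre-negative replicate 2.

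Cargo receptors link ubiquitin-tagged cargo to ATG8 proteins, and none of the 3 passed. Nbr1 had 256, 241 and 261 CPM in Cre-negative and 227, 224 and 235 CPM in Cre-positive libraries, all of the latter lower, and the log2 difference was -0.14 (SE 0.069, adjusted p = 0.262). Optn (optineurin) had 29.3, 26.3 and 19.7 CPM and 19.7, 23.8 and 23.1 CPM, which overlapped, with the lowest Cre-negative value in replicate 3 (log2 fold change -0.18, SE 0.15, adjusted p = 0.536). Sqstm1 encodes p62, the receptor whose protein builds up when autophagic flow is blocked. It stood at 454, 425 and 487 CPM in Cre-negative and 430.1, 456 and 444 CPM in Cre-positive libraries. The 95% confidence interval of its log2 fold change, -0.22 to 0.14, allows 0.859 to 1.105 times the Cre-negative message level, and protein was not measured.

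**Figure D4:**
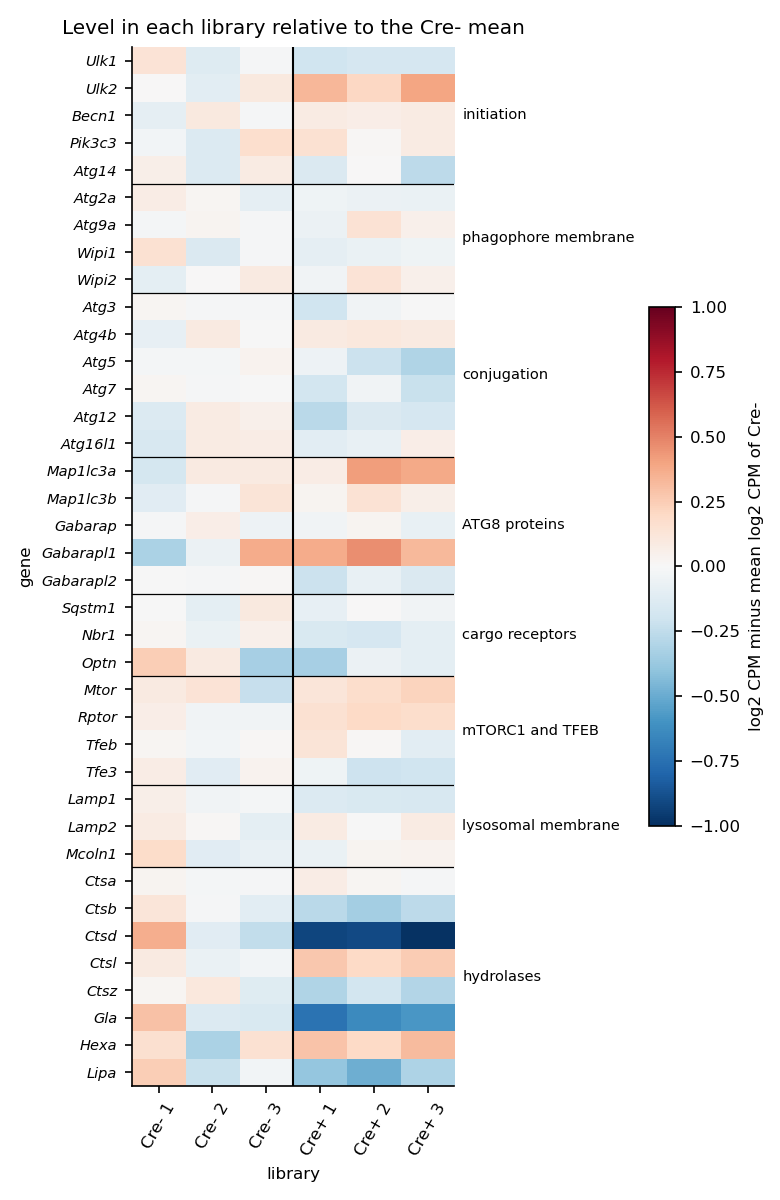
Each of the 38 members (rows, grouped by role) in each of the 6 libraries (columns), as log2 CPM minus the mean log2 CPM of the 3 Cre-negative libraries (colour scale, -1 to 1). The strongest colours are those of Ctsd and Gla in the Cre-positive libraries, and Gabarapl1 is high in Cre-negative replicate 3.

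A wider list of 155 other autophagy and lysosome genes gave the members a frame. All 155 were tested, and 10 rose, 8 fell and 137 did not pass. The calls are 11.6% of the list, against 7.55% of all genes. In the range of average expression that the members span, 10.4% of genes passed. The median log2 fold change was 0.0027. Without single Cre-positive libraries 5 or 6 passed, and without Cre-negative replicate 2 there were 10. The calls were uneven across roles. Other hydrolases held 9 of the 18, with 7 higher and 2 lower of 38 genes. Nutrient sensing held 5, with 2 higher and 3 lower of 31. Other autophagosome genes held 2 of 19, both lower, and other lysosomal membrane genes 2 of 19, 1 in each direction. None of the 10 other receptors, 13 fusion genes, 16 V-ATPase subunits and 9 sorting genes passed.

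Among the other hydrolases, 7 rose. Gaa, the acid alpha-glucosidase whose loss causes Pompe disease, had 111, 104 and 116 CPM in Cre-negative and 150.5, 152 and 153 CPM in Cre-positive libraries, or 0.46 on the log2 scale (SE 0.067, adjusted p = 0.00597). All Cre-positive libraries lay above the Cre-negative ones. Ctsf, a cysteine cathepsin, changed by 0.38 (SE 0.070, adjusted p = 0.0148). Further genes that rose, chosen once their values had been seen, included Naglu at 0.36, Man2b1 at 0.35, Ctsh at 0.30 and Galc at 0.26. The call of Galc ended without any single library of either genotype. Those of Man2b1 and Ctsh held only without Cre-negative replicate 3, that of Naglu only without Cre-negative replicate 1, and that of Ctsf ended without any 1 of the Cre-positive libraries. Summed proximal tubule, endothelial, distal nephron, mesangial and podocyte markers were higher in the same libraries, as given with Ctsd. Their part in these rises was not tested. With the proximal tubule markers as a covariate none of the 155 genes passed, in a fit where 22 of all 19927 genes did. That covariate takes up much of the contrast between genotypes.

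The hydrolases that fell were Ctss and Dnase2a. Ctss encodes cathepsin S, a protease of antigen-presenting cells, and had 40.7, 22.2 and 34.5 CPM in Cre-negative and 14.5, 10.3 and 11.96 CPM in Cre-positive libraries, or -1.41 on the log2 scale (SE 0.23, adjusted p = 0.0144). The summed macrophage markers, given with Ctsd, were lower in the same libraries, narrowly so against Cre-negative replicate 2 (212 CPM against at most 211). Of the 16 markers 2 passed, and their part in the level of Ctss was not tested. With their mean as a covariate, which takes up much of the contrast, the value was -0.71 (adjusted p = 0.0938). Without Cre-positive replicate 2 or 3 the call of Ctss ended (adjusted p = 0.0619 and 0.0734). Dnase2a, the acid DNase, outside the naming rule, stood at -0.47 (adjusted p = 0.0448), and its call held only without Cre-negative replicate 3 among the single libraries left out, with adjusted p up to 0.151.

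Of the autophagosome genes beside the members, Atg4a and Vmp1 fell. Atg4a, an X-linked relative of the member Atg4b with the same trimming role, had 38.4, 33.5 and 30.8 CPM in Cre-negative and 20.3, 20.5 and 20.6 CPM in Cre-positive libraries. Its log2 fold change was -0.74 (SE 0.099, adjusted p = 0.00407), and the call held without each single library, with adjusted p-values up to 0.0290. Atg4b, by contrast, lay at 0.094; the difference between the 2 genes was not tested. Vmp1, a scramblase of the endoplasmic reticulum needed for autophagosome formation, had 174, 150.4 and 133 CPM and 105, 99.7 and 98.5 CPM, or -0.59 on the log2 scale (SE 0.098, adjusted p = 0.0101). Without Cre-positive replicate 2 or 3 the call of Vmp1 ended (adjusted p = 0.0523 and 0.0616).

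Upstream of mTORC1, genes of nutrient sensing moved in both directions. Sesn3 and Sesn2, the sestrins that hold mTORC1 back under amino acid shortage and other stress, fell by 0.32 and 0.41 on the log2 scale (SE 0.065 and 0.10, adjusted p = 0.0224 and 0.0474). Castor1, the arginine sensor that also restrains mTORC1, had 10.2, 14.05 and 11.5 CPM in Cre-negative and 6.23, 8.04 and 7.398 CPM in Cre-positive libraries, or -0.72 on the log2 scale (SE 0.17, adjusted p = 0.0367). Tsc1, a subunit of the complex that switches off the mTORC1 activator Rheb, rose by 0.30 (SE 0.065, adjusted p = 0.0278). Fnip2, a partner of folliculin in nutrient sensing at the lysosome, rose by 0.44 (SE 0.10, adjusted p = 0.0376). Sesn2 lay outside the naming rule and is given to complete the 5. Each of the 5 lost its call when single libraries were left out, Sesn3 without any 1 of the Cre-positive libraries and Tsc1 without any library but Cre-negative replicate 3.

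At the lysosomal membrane, Tpcn1, which encodes a cation channel of endosomes and lysosomes, rose and Ostm1, the partner of the chloride transporter Clcn7, fell. Tpcn1 had 152, 143 and 149 CPM in Cre-negative and 211, 224 and 227 CPM in Cre-positive libraries, or 0.58 on the log2 scale (SE 0.068, adjusted p = 0.00214), and it passed without each single library. Ostm1 had 34.5, 32.8 and 33.1 CPM and 23.2, 23.3 and 25.6 CPM, or -0.48 on the log2 scale (SE 0.082, adjusted p = 0.0118), and its call ended without Cre-positive replicate 1 (adjusted p = 0.0534) or 2 (0.0563). In the lists with no call, the genes with the smallest p did not pass. The receptor Tax1bp1 stood at -0.27 (adjusted p = 0.0594), the tethering subunit Vps33a at 0.21 (0.122), the V-ATPase subunit Atp6v0e at -0.22 (0.106) and the mannose 6-phosphate receptor Igf2r at -0.40 (0.162).

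**Figure D5:**
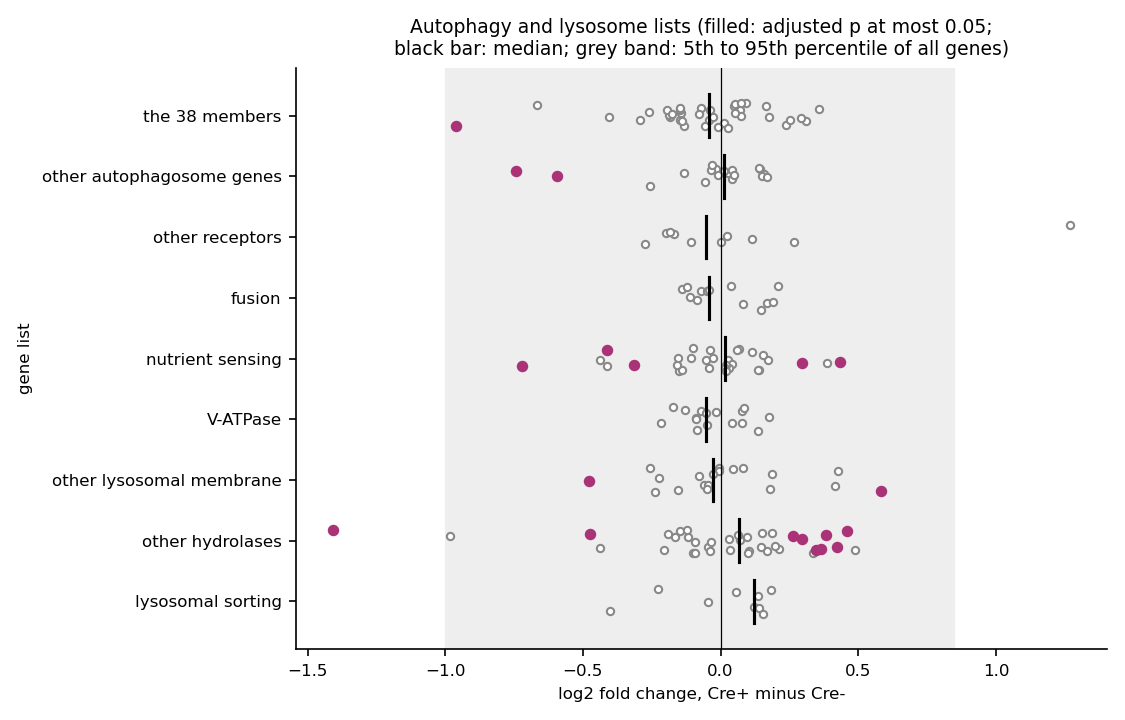
Log2 fold change (x axis, Cre-positive minus Cre-negative) of each gene in the 38 members and in 8 lists of other autophagy and lysosome genes (y axis), with genes past an adjusted p of 0.05 filled and the median of each list as a black bar. The grey band spans the 5th to 95th percentile of all genes, -0.998 to 0.848, and outside it lie Ctss at -1.41 and the receptor gene Stbd1 at 1.27, which did not pass.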

How the data were processed

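Poly(A) RNA of 6 libraries was sequenced, and the authors deposited raw read counts for each Ensembl gene. Per the submitters' processing notes, fastp, HISAT2, StringTie, edgeR and the build GRCm39 were used; versions, annotation and strand setting were not stated there. How reads that match several genes were counted is unknown, which makes overlapping genes uncertain. Among these were Atg9a with Ankzf1 (29409 and 20129 counts) and Map1lc3b with Zcchc14 (60138 and 33644), each on opposite strands.

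A reference table of gene IDs and names gave symbols for 51880 of 57132 rows, and every list gene matched 1 row. Merged exon lengths, chromosomes and overlaps came from GENCODE M21 (GRCm38), another build than the counts. Genes kept by filterByExpr were compared with edgeR 4.0.16 in R 4.3.3 (TMM factors 0.979 to 1.03, robust quasi-likelihood test). The 19927 p-values were adjusted together by Benjamini-Hochberg, with calls at 0.05. The SE of a log2 fold change is its size over the root of F. Intervals are at 95%. The common dispersion gave a variation of 21.5% (its root). All pairs of libraries differed beyond sampling noise (chi-square per degree of freedom at least 20.6). Setdb2 was also compared by exact permutation of its log2 CPM (two-sided), with p = 0.6, where 0.1 is the smallest that 3 against 3 samples allow. The script was tested on simulated data. Alternatives used DESeq2 1.42.0 and limma 3.58.1 voom, other scaling, filters and thresholds, a replicate block, marker covariates and each library left out. Members past the threshold and the 2 with the smallest p in role groups without one were to be described in every library, and in each wider list up to 4 genes past it were to be named, or else the smallest p. The members, lists and rule were chosen with earlier results of these data known. Proteins were not used here, and 1 gene of the wider list is counted but not reported here by name.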

Additional observations from a re-analysis of the deposited data

How the results depend on the processing

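Depth was even and the lowest count of a member in a library was 279, so the spread between 3 libraries a group, not depth, limits these results. The members that passed numbered 1 as reported. They were 7 with DESeq2, 2 under a filter of 1 CPM in 3 libraries, 6 at an adjusted p of 0.10, 0 with either marker covariate, and 0 to 6 when single libraries were left out: 2 without Cre-negative replicate 2, 6 without replicate 3 and 0 without Cre-positive replicate 3. The other pathway genes that passed were 18, against 3 at an adjusted p of 0.01, 26 with DESeq2, 27 at 0.10, 0 with the proximal tubule covariate, 2 with the macrophage covariate and 5 to 19 with single libraries left out. Over all genes the count of 1505 became 2697 with DESeq2, 414 and 2562 at adjusted p of 0.01 and 0.10, 22 and 320 with the proximal tubule and macrophage covariates, and 462 to 2039 with single libraries left out. The markers differ between genotypes, so a covariate takes up much of the contrast. Of all genes called, 49.4% were higher, against 13.6% and 38.1% with the proximal tubule and macrophage covariates.

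Replicate numbers were not used to pair the samples in the main fit, and whether they do pair them is not settled. The correlation of deviations from the group means was 0.0547, 0.0551 and 0.0173 for numbers 1, 2 and 3. Between unlike numbers it was -0.068 to 0.0170. All 6 libraries correlated best with their own number, as a hint from the data. With the replicate block 2 members passed (Ulk2 and Ctsd), 14 other pathway genes and 1541 genes in all.

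Some log2 fold changes turned in sign, none of them past the threshold as reported or after turning; the cause was not tested. With the proximal tubule covariate these were Setdb2 (0.18), Ulk1 (0.078), Becn1 (-0.12), Atg14 (0.16), Atg2a (0.034), Atg9a (-0.082), Wipi1 (0.21), Wipi2 (-0.14), Atg4b (-0.089), Atg5 (0.0011), Map1lc3a (-0.24), Map1lc3b (-0.069), Sqstm1 (0.012), Tfe3 (0.17), Mcoln1 (0.25), Lipa (0.046) and Igf2r (0.12). With the macrophage covariate they were Becn1 (-0.051), Atg9a (-0.010), Wipi1 (0.13), Wipi2 (-0.035), Atg4b (-0.023), Sqstm1 (0.022) and Mcoln1 (0.18). With limma voom it was Mcoln1 (0.020). With single libraries left out they were Setdb2 (-0.27 to 0.0024), Atg9a (-0.0045 to 0.098), Wipi1 (-0.14 to 0.0077), Gabarap (-0.056 to 0.0042), Sqstm1 (-0.088 to 0.013), Tfeb (-0.046 to 0.070) and Mcoln1 (-0.066 to 0.092). Over Setdb2, the members and the other genes named, 917 of the values under other settings kept direction and side of the threshold, 123 lost a call, 24 gained one and 34 turned. The median log2 fold change of the members ranged from -0.060 to -0.014.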

Other observations

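Over the 6 libraries, the genes whose log2 CPM followed that of Ctsd most closely among all genes tested were Mybl1 (Pearson r = 0.9997), Lgals1 (0.998), S100a11 (0.998), Fndc10 (0.996) and ENSMUSG00000120992 (0.996). All 5 were lower in Cre-positive, with log2 fold changes of -1.88, -1.38, -0.92, -1.05 and -1.97. Lgals1 encodes the glycan-binding protein galectin-1 and S100a11 a calcium-binding protein. The libraries fall into 2 genotypes and share their depth, so these values describe a ranking over 6 points and carry no test.

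The motif TCACGTGA was looked for in the wider list as well. Of the other autophagy and lysosome genes with a RefSeq window, 11 (8.66%) held it, among them the V-ATPase genes Atp6v0d1, Atp6v0e and Atp6v1a, and none of the 11 passed the threshold, with a median log2 fold change of -0.085. Of the 116 without it, 7 rose and 8 fell. Over all genes tested with a window, 4.12% of the 243 with the motif passed and 8.53% of the 12597 without it. Among members and wider-list genes with a window, Ctsd was thus the only one that both held these letters and passed. Genes without a window were not searched, some that passed among them. Neither the motif's presence nor its absence measures TFEB binding.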
